A study of Mus musculus with 45 samples.

Results

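The early response of cultured mouse limb buds to bisphenol AF (BPAF), a fluorinated relative of the plastics chemical bisphenol A, was examined by comparing 5 libraries exposed to 5 µM BPAF for 3 h with 5 libraries that received only the vehicle, dimethyl sulfoxide (DMSO), for 3 h. These 10 libraries were taken by their labels from the 45 of the series, which also holds 1 µM BPAF and culture times of 24 and 48 h, again with 5 libraries for each dose and time. All of them came from forelimb buds of CD1 mouse embryos at gestation day 13, pooled and kept in glass bottles in a BGJb-based medium, with limbs of both sexes in culture together, and poly-A RNA was sequenced. CD1 is an outbred stock, and a whole bud mixes cartilage precursors, muscle, skin, vessels, nerve and blood. A lower level can therefore mean fewer cells of a type or less RNA per cell, and bulk libraries cannot tell these apart. The labels do not say whether the 5 replicates of a group were separate bottles, litters or days, and the p-values therefore describe only how far these libraries spread, which may in part be technical variation.

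The endoplasmic reticulum (ER) folds and modifies proteins bound for the cell surface, the secretory pathway and the extracellular matrix. When folding capacity falls short, the sensors IRE1, PERK and ATF6 start the unfolded protein response, in which IRE1 splices the Xbp1 message, XBP1 and ATF6 raise chaperone genes, and PERK acts through ATF4 and CHOP (the product of Ddit3). In the limb bud, bone morphogenetic proteins (BMPs) and their secreted antagonist noggin shape the cartilage condensations and the joints, and SOX9 directs cells to cartilage.

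Library totals ran from 15830793 to 19100366 reads. Levels are read counts normalised to library size with TMM scaling over all 35 libraries used (CPM), while counts of groups that do not overlap use the 10 libraries of the fit. Levels are the mean ± SD over 5 libraries unless each library is listed. The forelimb factor Tbx5 stood at 294 ± 7.84 CPM in controls and 284 ± 10.2 with BPAF, against 21.8 ± 2.87 and 20.8 ± 1.56 for the hindlimb factor Tbx4, so the libraries carry the forelimb marker of their label. Haemoglobin transcripts, from red cells, took 0.223% ± 0.0358 of reads with BPAF and 0.271% ± 0.0436 in controls (two-sided exact permutation p = 0.0952). Reads from 1 set of Y-linked genes came to 145 ± 53.9 CPM with BPAF and 80.3 ± 55.2 CPM in controls (two-sided exact permutation p = 0.0794). Control replicate 3 had 0.105 CPM of them, although the labels put both sexes in culture together, and the part of these differences in the results was not tested beyond the covariate fits and the fits without that library given with the calls.

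After 3 h of 5 µM BPAF, genes of ER protein folding were higher, and noggin, a pair of cholesterol exporters, the arrestin-like genes Txnip and Arrdc4 and several tubulins were lower. edgeR's quasi-likelihood test called 30 of 16651 genes at a Benjamini-Hochberg adjusted p under 0.05, which is 0.18% of those tested, with 19 higher (0.114%) and 11 lower (0.0661%). At an unadjusted p under 0.05 there were 1424 genes (8.55%), with 760 higher (4.56%) and 664 lower (3.99%). Of all genes, 50.3% had a fold change above 0. None of the 30 reached a 2-fold change, and in every one the 5 BPAF libraries lay wholly above or wholly below the 5 controls. Over all genes the BPAF libraries lay wholly above the controls for 142 genes (0.853%) and wholly below for 144 (0.865%). DESeq2 called 51 genes higher and 65 lower (0.859% of the 13501 it adjusted), limma-voom called 31 (0.186%), and the authors' deposited table holds 113 genes at an adjusted p-value under 0.05. Leaving out 1 library at a time kept between 15 and 27 of the 30 calls, and the count fell to 15 without BPAF replicate 2, 16 without control replicate 1, 18 without BPAF replicate 5 and 19 without control replicate 5. With the haemoglobin share as a covariate edgeR called 3 genes (Nog, Txnip and Arrdc4) and with the Y-linked level as a covariate 23, of which 15 were among the 30. No called gene changed direction in any of 20 alternative settings. These settings reuse the same libraries, whose groups do not overlap for these genes, so a kept direction is no separate support for the calls.

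**Figure D1:**
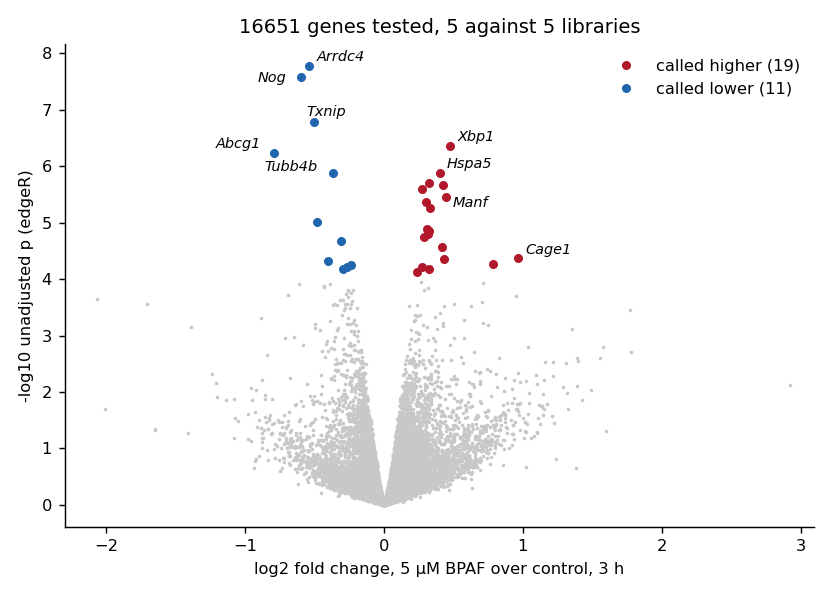
Each point is 1 of 16651 genes, with the log2 fold change of 5 µM BPAF over control at 3 h on the horizontal axis and the -log10 unadjusted p of edgeR on the vertical axis. The 19 genes called higher are red, the 11 called lower are blue, and all 30 lie between a log2 fold change of -0.79 (Abcg1) and 0.96 (Cage1).

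The largest group among the higher genes folds proteins in the ER. Of 22 genes on the list of ER chaperones and folding enzymes, 20 were in the tables and tested, and edgeR called 7 higher and 0 lower, against 0.114% of all genes called higher. At an unadjusted p under 0.05, 14 of the 20 were higher and 0 lower, where 4.56% of all genes were higher at that level. The median log2 fold change of the list was 0.26, against 0.00 over all genes, and in 10 of the 20 the BPAF libraries lay wholly above the controls. DESeq2 called 12 and limma-voom 7, all higher, and edgeR called between 5 and 8 when each library was left out in turn, including 5 without control replicate 3, and 0 with the haemoglobin covariate. In that covariate fit Hspa5 was at 0.42 (edgeR adjusted p = 0.0617) and Xbp1 at 0.48 (edgeR adjusted p = 0.0529). This list and the other lists were chosen with earlier results of these data known, so their counts are no separate support for the calls.

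The ER chaperone BiP is the product of Hspa5 (chromosome 2, 34771970 to 34777547, plus strand, build mm10), binds unfolded chains and keeps the 3 sensors inactive while folding keeps pace. Hspa5 stood at 757, 847, 823, 781 and 921 CPM in the BPAF libraries. In the controls it stood at 640.2, 677, 549, 632 and 645 CPM. Every BPAF library was above every control, with control replicate 3 the lowest and BPAF replicate 5 the highest. The gene rose by 0.40 ± 0.06 on the log2 scale (standard error, edgeR adjusted p = 0.00319). Its co-chaperone Dnajc3, which also restrains PERK, stood at 72.8, 75.2, 74.4, 72.3 and 87.4 CPM with BPAF. The controls held 57.0, 60.6, 51.8, 54.4 and 62.8 CPM of Dnajc3. The groups did not overlap, 4 BPAF libraries were close together and replicate 5 stood above them, and the rise was 0.42 ± 0.06 (edgeR adjusted p = 0.00394). Calnexin, a lectin chaperone for glycoproteins encoded by Canx, read 459, 480.1, 454, 469.9 and 486 CPM with BPAF and 382, 413, 388, 387 and 381 CPM in controls. The groups did not overlap, and the rise was 0.27 ± 0.04 (edgeR adjusted p = 0.00419).

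The other called chaperone genes were Manf, a secreted ER stress factor, at 0.44 ± 0.07, Hyou1, a nucleotide exchange partner of BiP, at 0.30 ± 0.05, Dnajb9, another BiP co-chaperone, at 0.43 ± 0.08, and the disulfide isomerase Pdia4 at 0.27 ± 0.05 (edgeR adjusted p from 0.00522 to 0.0376). Dnajb9 lost its call in 6 of the 10 fits that leave out 1 library and Pdia4 in 8, while Hspa5, Dnajc3, Canx, Manf and Hyou1 kept theirs in all 10. Members just short of the call were calreticulin (Calr, 0.29 ± 0.06, edgeR adjusted p = 0.0657), GRP94 (Hsp90b1, 0.24 ± 0.05, edgeR adjusted p = 0.0803) and Pdia6 (0.18 ± 0.04, edgeR adjusted p = 0.0807). Sdf2l1, which binds BiP complexes, had the largest fold change of the list, 0.58 ± 0.14, at a low level of 13.5 ± 2.14 against 9.06 ± 1.70 CPM, and was not called (edgeR adjusted p = 0.112). The lowest member was Sil1 at -0.05 ± 0.13, and Txndc5 (-0.01), Ppib (0.00) and Dnajc10 (0.01) had values near 0, so the list did not move as a block.

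The promoters of the called genes were searched for short motifs because XBP1 and ATF6 are known to act through the ER stress element, written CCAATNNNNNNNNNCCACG. RefSeq windows on GRCm38.p6, each 250 bases before to 50 bases after a start site, were found for 23 of the 30 called genes. The element, on either strand, was in the windows of Hspa5, Dnajc3 and Canx, and in 39 of all 32851 windows (0.1187%). The first base of the element lies 65 bases before the start in Hspa5, 105 in Dnajc3 and 145 in Canx. These starts are RefSeq's, and for Hspa5 the start lies inside the gene coordinates given above, which begin further upstream. A shorter XBP1-bound core, TGACGTGG, was in the window of Txndc11, 102 bases before the start, and in 0.6758% of all windows. The sequences are shown 5′ to 3′ on the gene's strand, with the matching bases in capitals, because these genes carry the largest called group. For Dnajc3 and Canx the 150 bases before the start are given, and for Hspa5 and Txndc11 only 30 bases around the match.
Hspa5, chr2:34772020-34772049, plus strand: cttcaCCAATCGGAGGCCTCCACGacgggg
Dnajc3, chr14:118937782-118937931, plus strand: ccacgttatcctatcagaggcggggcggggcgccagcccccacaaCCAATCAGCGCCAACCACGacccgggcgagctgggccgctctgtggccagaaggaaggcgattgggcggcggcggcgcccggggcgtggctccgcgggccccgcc
Canx, chr11:50325674-50325823, minus strand: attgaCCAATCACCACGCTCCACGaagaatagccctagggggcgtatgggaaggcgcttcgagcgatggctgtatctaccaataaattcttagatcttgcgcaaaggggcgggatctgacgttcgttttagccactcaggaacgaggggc
Txndc11, chr16:11134616-11134645, minus strand: tgaagtgtggcTGACGTGGagagtccgggt
The CCAAT and CCACG ends of the 3 elements are fixed by the search, and the 9 bases between them differ. Neither motif was in the windows of Serp1, Magt1, Dnajb9 and Pdia4. Xbp1, Manf and Hyou1 had no match to any searched motif, and whether they had a window is not given here. The search also covered the CCAAT box, E-box, tandem E-box, CRE, sterol element core, heat shock element, DR4 half-site pair and another ER stress element. Of these, only the CCAAT box and the E-box matched in called genes. A match describes these letters only, and no binding was measured here.

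**Figure D2:**
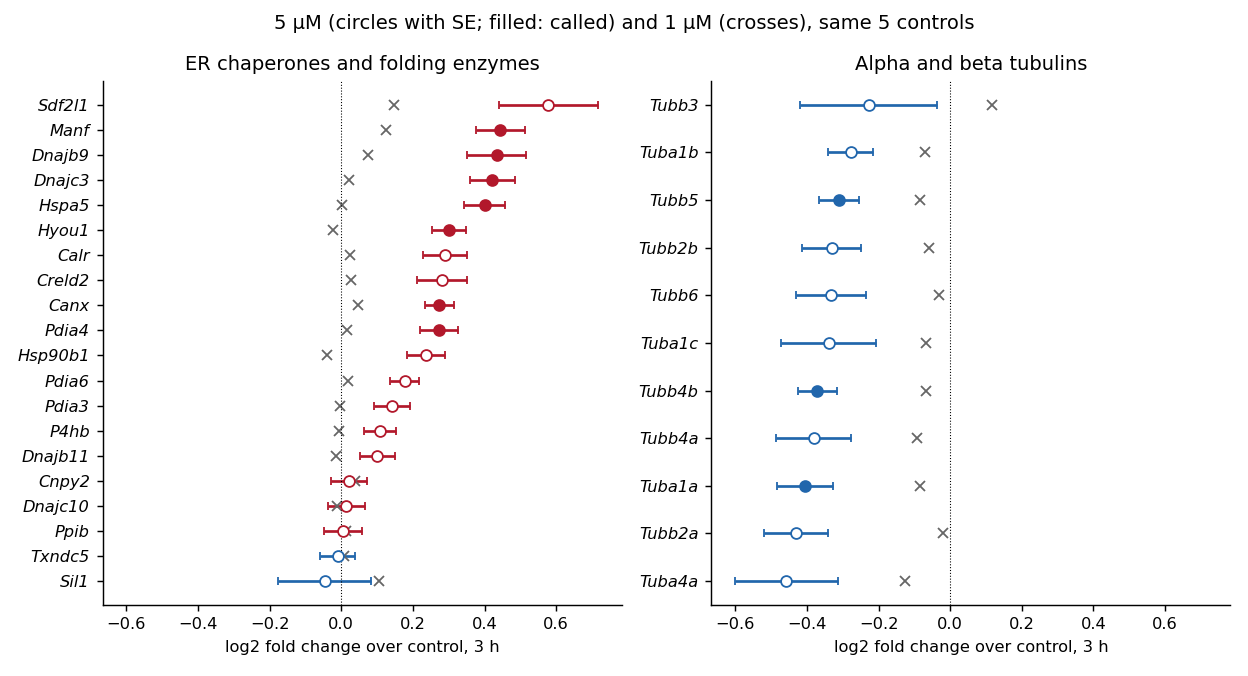
Log2 fold changes over control at 3 h for the 20 tested ER chaperone genes (left) and the 11 tested alpha and beta tubulins (right), as circles with standard errors for 5 µM BPAF (filled where called) and crosses for 1 µM BPAF, both against the same 5 controls. At 5 µM, 18 of 20 chaperone genes lie above 0 and 11 of 11 tubulins below 0, and the 1 µM crosses lie closer to 0 for most genes.

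Genes that carry proteins into the ER or remove misfolded ones from it followed in smaller numbers. Of 26 tested genes for ER-associated degradation and XBP1-driven secretion, edgeR called 2 higher (Xbp1 and Serp1) and 0 lower, and 14 were higher with 0 lower at an unadjusted p under 0.05. Over all genes 0.114% were called higher and 4.56% were higher at that unadjusted p. The median log2 fold change of the list was 0.14. Xbp1 (chromosome 11, 5520659 to 5525893, plus strand), the transcription factor whose message IRE1 splices, stood at 109, 124, 119, 114 and 134 CPM with BPAF. In controls Xbp1 stood at 90.4, 94.3, 75.9, 86.8 and 86.2 CPM, below each BPAF library. The rise was 0.48 ± 0.06 (edgeR adjusted p = 0.00182). Gene counts do not separate spliced from unspliced Xbp1. Serp1, which stabilises membrane proteins at the translocon, rose by 0.32 ± 0.05 from 188 ± 10.2 to 234 ± 9.99 CPM (edgeR adjusted p = 0.00394). Short of the call were Selenos, a degradation factor, at 0.26 ± 0.05 (edgeR adjusted p = 0.0609), the signal peptidase subunit Spcs3 at 0.20 ± 0.05 and the channel subunit Sec61a1 at 0.16 ± 0.05. Called genes outside both lists that work in the same compartment were Txndc11, an ER thioredoxin-like protein, at 0.32 ± 0.06, and Magt1, an oligosaccharyltransferase subunit and magnesium transporter, at 0.24 ± 0.05 (edgeR adjusted p = 0.0145 and 0.0413). Txndc11 lost its call in 3 and Magt1 in 8 of the 10 fits without 1 library.

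The sensors themselves and the ATF4 arm gave no edgeR call at 3 h. Of the genes for sensors and transducers edgeR called 0 of 14, with 1 higher and 1 lower at an unadjusted p under 0.05, DESeq2 called 0 and limma-voom 0. Ddit3, the CHOP gene, had 27.3, 31.6, 27.1, 31.2 and 27.5 CPM with BPAF. Its controls had 25.3, 22.9, 23.8, 27.5 and 20.4 CPM, and 3 of the 5 BPAF libraries stood under the highest control on this scale, while scaling over the 10 libraries of the fit put all 5 above it. Its fold change was 0.28 ± 0.08 (edgeR adjusted p = 0.256). Atf4 was at 0.07 ± 0.07 and Trib3, a target of ATF4 and CHOP, at -0.07 ± 0.13 (edgeR adjusted p = 0.829 and 0.92). Among ATF4-driven amino acid genes edgeR called 0 of 30, with 2 higher and 1 lower at an unadjusted p under 0.05, DESeq2 called 1 and limma-voom 0. Their median was 0.01, and the member with the smallest p was Ddit4, an inhibitor of growth signalling, at -0.28 ± 0.06 (edgeR adjusted p = 0.0697). For the cytosolic aminoacyl-tRNA synthetases edgeR called 0 of 20, with 0 higher and 0 lower at an unadjusted p under 0.05, DESeq2 called 0 and limma-voom 0.

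Of the cytosolic heat shock genes, edgeR called 1 of 22. Hspa8, the constitutive HSC70 chaperone, stood at 1025, 1173, 1082, 1027 and 1244 CPM with BPAF against 853, 939.9, 822, 935 and 924 CPM in controls. It rose by 0.32 ± 0.06 (edgeR adjusted p = 0.0155), a call that was lost in 3 of the 10 fits without 1 library. The inducible Hspa1b was at 0.50 ± 0.11 and the large HSP110 family member Hsph1 at 0.31 ± 0.07 (edgeR adjusted p = 0.0803 and 0.0651). At an unadjusted p under 0.05, 5 of the 22 were higher and 0 lower, and DESeq2 called 3. Over all genes 4.56% were higher at that level, and DESeq2 called 0.859% of the genes it adjusted.

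**Figure D3:**
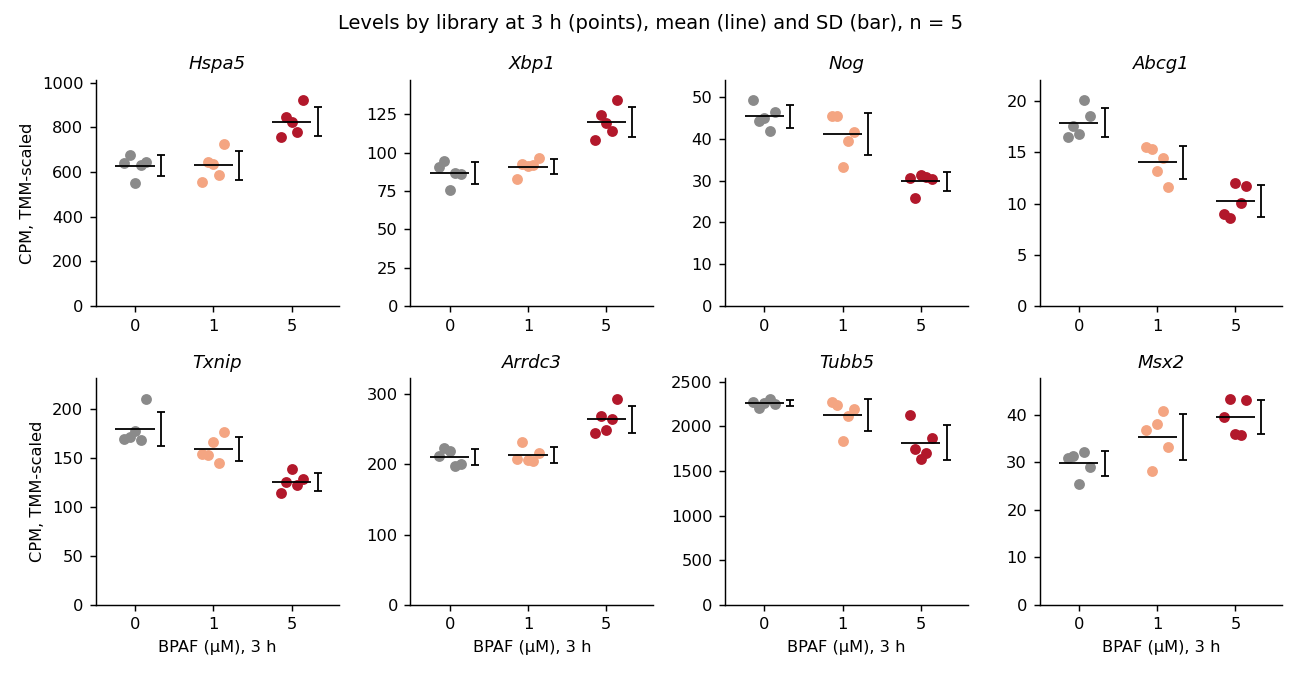
CPM at 3 h in each library (points) of 8 called genes with 0, 1 or 5 µM BPAF, with the mean (line) and SD (bar) of 5 libraries. At 5 µM every library of Hspa5, Xbp1, Arrdc3 and Msx2 is above the controls and every library of Nog, Abcg1, Txnip and Tubb5 is below them.

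Liver X receptors (LXR) switch on genes that export cholesterol, and the exporters ABCG1 and ABCA1 are their best known targets. Abcg1 (chromosome 17, 31057698 to 31115777, plus strand) had 9.0, 8.60, 12, 10.0 and 11.7 CPM in the BPAF libraries. Its controls had 16.5, 17.6, 16.8, 20.1 and 18.6 CPM. The groups were well apart, and Abcg1 fell by 0.79 ± 0.11 on the log2 scale, the largest fall among called genes (edgeR adjusted p = 0.00193). Abca1 had 48.1, 59.9, 63.6, 67.1 and 56.2 CPM with BPAF and 74.0, 85.0, 93.3, 74.2 and 88.8 CPM in controls. It fell by 0.49 ± 0.08 (edgeR adjusted p = 0.0115), but the call was lost when the Y-linked level was a covariate (-0.44, edgeR adjusted p = 0.0676). Of 18 tested LXR targets edgeR called these 2 lower and 0 higher, and DESeq2 called 4 lower, adding Mylip and Srebf1. At an unadjusted p under 0.05, 7 were lower and 2 higher, with a median of -0.08. Over all genes 3.99% were lower and 4.56% higher at that level. Mylip, which marks the LDL receptor for degradation, was at -0.24 ± 0.05 and the lipogenic factor Srebf1 at -0.25 ± 0.07 (edgeR adjusted p = 0.0803 and 0.187), and in both the BPAF libraries lay wholly below the controls. The members higher at that level were the desaturase Scd1 at 0.25 ± 0.07 and Arl4c at 0.19 ± 0.06.

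Cholesterol synthesis genes, which SREBP2 controls, had mostly positive values without an edgeR call. For the list edgeR called 0 of 28, with 12 higher and 0 lower at an unadjusted p under 0.05, DESeq2 called 5 and limma-voom 0. The DESeq2 calls were all higher, 25 of the 28 genes had a fold change above 0 and the median was 0.18. Over all genes 4.56% were higher at that unadjusted p and 50.3% had a fold change above 0. DESeq2 called 0.859% of the genes it adjusted, in both directions. The members with the smallest p were Sc5d (0.26 ± 0.06), Dhcr7 (0.37 ± 0.09) and Idi1 (0.42 ± 0.10), enzymes of the pathway, and Insig1 (0.38 ± 0.10), which holds SREBP2 in the ER (edgeR adjusted p from 0.101 to 0.132). edgeR called 7 of them without BPAF replicate 1 and 0 without any other single library.

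The arrestin-domain genes moved in both directions. Txnip, which binds thioredoxin and limits glucose uptake, and Arrdc4 are targets of the glucose sensor MondoA, and ARRDC3 is a related adaptor for receptor trafficking. Txnip had 114, 125, 138, 122 and 129 CPM with BPAF against 169.7, 172, 178, 168 and 210.3 CPM in controls. It fell by 0.51 ± 0.06 (edgeR adjusted p = 8.99e-04), with control replicate 5 above the other controls. Arrdc4 (chromosome 7, 68736995 to 68749241, minus strand) had 37.0, 35.0, 40.8, 37.2 and 35.6 CPM with BPAF against 51.5, 51.0, 55.2, 58.0 and 55.5 CPM in controls. Both groups were narrow and the fall of 0.54 ± 0.06 had, with that of Nog, the smallest adjusted p of all genes (edgeR adjusted p = 2.15e-04). Arrdc3 had 245, 269, 249, 264 and 293 CPM with BPAF against 212, 224, 218, 198 and 200.4 CPM in controls, and rose by 0.33 ± 0.05 (edgeR adjusted p = 0.00689). The other 9 of the 12 list members were not called, and the list's median was 0.01. In the promoter windows the E-box CACGTG, the core of the MondoA site, was present for Arrdc4 and absent for Txnip and Arrdc3, and 7.15% of all windows hold it.

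Glycolytic and hypoxia-responsive genes, to which Txnip is linked by glucose use, gave no edgeR call. For these edgeR called 0 of 34, with 0 higher and 14 lower at an unadjusted p under 0.05, DESeq2 called 4 and limma-voom 0. Over all genes 3.99% were lower at that unadjusted p, and DESeq2 called 0.859% of the genes it adjusted. The median of the list was -0.14. Pfkfb3, which makes an activator of phosphofructokinase, was at -0.61 ± 0.13, the mitochondrial hypoxia gene Higd1a at -0.43 ± 0.09 and Bnip3 at -0.37 ± 0.08 (edgeR adjusted p = 0.0609, 0.0635 and 0.0803).

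Tubulins polymerise into microtubules, and cells are known to lower tubulin messages when free tubulin builds up. Of 19 tested genes for tubulins and their folding cofactors, edgeR called 3 lower (Tubb4b, Tubb5 and Tuba1a) and 0 higher, against 0.0661% of all genes called lower, and 10 were lower with 0 higher at an unadjusted p under 0.05 (3.99% of all genes were lower). All 10 are alpha or beta tubulins, of which 11 were tested, and all 11 had a fold change below 0, between -0.46 and -0.23 with a median of -0.34. The 8 gamma, delta and epsilon tubulins and cofactors on the list gave 0 calls and 0 at an unadjusted p under 0.05 (edgeR), with a median of -0.04. This split by protein class was made after the values were seen, and the list was chosen with earlier results of these data known. The alpha and beta isotypes have very similar sequences, so reads may be divided between them in ways that the sources used here do not describe.

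Tubb5, a widely expressed beta isotype, had 2132, 1743, 1634, 1699.8 and 1865 CPM with BPAF. The controls had 2269, 2209.9, 2262, 2307 and 2255 CPM. BPAF replicate 1 stood closest to the controls, and Tubb5 fell by 0.31 ± 0.06 (edgeR adjusted p = 0.0182). Tubb4b, another beta isotype, had 193, 174, 160.4, 162 and 182 CPM with BPAF and 214, 226, 221, 242 and 229 CPM in controls, a fall of 0.37 ± 0.05 (edgeR adjusted p = 0.00319). Tuba1a, the main alpha isotype of developing neurons, had 334, 223, 269, 252 and 242 CPM with BPAF and 349.7, 373, 354, 340.1 and 341 CPM in controls. BPAF replicate 1 was again the highest of its group, and the fall was 0.41 ± 0.08 (edgeR adjusted p = 0.0339). Without BPAF replicate 1 edgeR called 6 members of the list, and without BPAF replicate 2 or 4 or control replicate 1 or 5 it called 1. Tubb4b kept its call in all 10 such fits, Tubb5 lost it in 4 and Tuba1a in 8. Tubb2a at -0.43 ± 0.09 and Tuba1b at -0.28 ± 0.06 were just short of the call (edgeR adjusted p = 0.0635 and 0.0803).

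Noggin (Nog, chromosome 11, 89300638 to 89302332, minus strand) binds BMPs outside the cell and blocks them. Nog had 30.5, 25.7, 31.4, 30.8 and 30.4 CPM in the BPAF libraries. In the controls Nog had 49.2, 44.3, 44.9, 41.8 and 46.5 CPM. A clear gap separated the groups, with 4 BPAF libraries within 1 CPM of each other, replicate 2 below them, and the lowest control at 41.8 CPM. Nog fell by 0.60 ± 0.07 (edgeR adjusted p = 2.15e-04). By edgeR it was the 1 call among 16 BMP antagonists, and DESeq2 called Nog and Fst lower. Follistatin (Fst), an activin and BMP binder, was at -0.27 ± 0.07 (edgeR adjusted p = 0.12), and the median of the list was -0.01.

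Of 27 BMP ligands, receptors and targets, edgeR called 2 higher and 0 lower, while DESeq2 called the same 2 higher and Gdf5 lower. Id1, a direct BMP and SMAD target that blocks differentiation factors, had 130.5, 122, 132, 119 and 142 CPM with BPAF and 103, 108, 98.1, 105 and 109 CPM in controls. It rose by 0.31 ± 0.05 (edgeR adjusted p = 0.0141). Msx2, a homeobox gene of limb mesenchyme and ectoderm that BMPs raise, had 39.6, 43.4, 36.0, 35.8 and 43.0 CPM with BPAF and 31.0, 31.4, 25.4, 32.1 and 29.1 CPM in controls. The groups did not overlap, and the rise was 0.42 ± 0.08 (edgeR adjusted p = 0.0221). Both calls were lost without BPAF replicate 5 and without control replicate 1, and that of Msx2 also without BPAF replicate 2 or control replicate 5, and neither was called with the Y-linked covariate. Gdf5, the joint-forming ligand, was at -0.26 ± 0.06, Bmp2 at 0.18 ± 0.05, Id3 at 0.15 ± 0.05 and Id2 at 0.15 ± 0.06, none of them called by edgeR (adjusted p from 0.0746 to 0.476).

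Other patterning pathways gave no edgeR call at 3 h. Over all genes 4.56% were higher and 3.99% lower at an unadjusted p under 0.05. In the Hedgehog pathway edgeR called 0 of 14, with 0 higher and 5 lower at an unadjusted p under 0.05, DESeq2 called 2 and limma-voom 0. Its members with the smallest p were Hhip, an inhibitor that Hedgehog itself induces, at -0.39 ± 0.08, Pthlh, which Indian hedgehog induces in the growth plate, at -0.70 ± 0.15, and the receptor Ptch1 at -0.20 ± 0.06 (edgeR adjusted p = 0.0609, 0.0731 and 0.252). Ihh itself was at -0.02 ± 0.11. In the FGF pathway edgeR called 0 of 20, with 8 higher and 2 lower at an unadjusted p under 0.05, DESeq2 called 0 and limma-voom 0, and the median was 0.13. The ligand Fgf10 was at -0.31 ± 0.10 and the feedback factor Etv5 at 0.22 ± 0.06 (edgeR adjusted p = 0.321 and 0.169). For WNT feedback genes edgeR called 0 of 20, with 1 higher and 2 lower at an unadjusted p under 0.05, DESeq2 called 0 and limma-voom 0. For the Notch list edgeR called 0 of 16, with 1 higher and 2 lower at an unadjusted p under 0.05, DESeq2 called 0 and limma-voom 0, and for retinoic acid genes edgeR called 0 of 19, with 1 higher and 2 lower at an unadjusted p under 0.05, DESeq2 called 0 and limma-voom 0.

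Cartilage genes stayed short of the threshold in edgeR. Sox9, the master factor of cartilage, had 384, 406, 367, 382 and 426 CPM with BPAF. Its controls had 486, 470.0, 449.6, 441 and 453 CPM. All 5 BPAF libraries were below all 5 controls, with a fold change of -0.22 ± 0.05 (edgeR adjusted p = 0.0657), and DESeq2 (adjusted p = 4.90e-04) and limma-voom (adjusted p = 0.0485) called it. Of 23 tested cartilage factors and matrix genes edgeR called 0, with 0 higher and 4 lower at an unadjusted p under 0.05, DESeq2 called 1 and limma-voom 1. Their median was -0.10, with the matrix collagen Col2a1 at -0.10 ± 0.07, Matn4 at -0.18 ± 0.06 and Sox5 at -0.14 ± 0.05. The summed level of the 24 listed cartilage genes was 5103 to 6540.0 CPM with BPAF and 5980 to 6478 CPM in controls. Runx2, the bone factor, was at -0.00 ± 0.10, and among 17 tested hypertrophic and bone genes edgeR called 0, with 0 at an unadjusted p under 0.05 and 0 by DESeq2 or limma-voom. In the tendon and joint list edgeR called 0 of 20, with 0 higher and 2 lower at an unadjusted p under 0.05, DESeq2 called 1 and limma-voom 0, and in the limb patterning list Msx2 was the 1 call among 36.

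The remaining called genes belong to no list above. Tef, a circadian output factor, rose by 0.29 ± 0.05 from 60.1 ± 3.52 to 73.0 ± 1.69 CPM (edgeR adjusted p = 0.0166). Ngfr, the p75 neurotrophin receptor, had 103, 93.3, 95.6, 108 and 105 CPM with BPAF and 71.7, 74.1, 84.3, 90.7 and 84.9 CPM in controls, and rose by 0.32 ± 0.06 (edgeR adjusted p = 0.0377). It is 1 of 12 Schwann lineage markers, whose other 11 gave 0 calls and 0 at an unadjusted p under 0.05 (edgeR, and 0 by DESeq2 and limma-voom), and whose summed level was 212 to 233 CPM with BPAF and 192 to 222 CPM in controls. Plod2, a collagen lysyl hydroxylase, fell by 0.23 ± 0.05, the complex I subunit Ndufv3 by 0.26 ± 0.05, and the acylpeptide hydrolase gene Apeh by 0.29 ± 0.06 (edgeR adjusted p = 0.0376, 0.0376 and 0.0377). These calls depended on single libraries, since Tef lost its call in 4, Ngfr lost its call in 8, Plod2 in 9, Ndufv3 in 9 and Apeh in 8 of the 10 fits without 1 library. Cage1, a cancer and testis antigen gene whose call was lost in 6 of those fits, rose most of the 30 in fold, 0.96 ± 0.18, at a low level of 5.44, 8.70, 5.86, 6.26 and 7.59 CPM with BPAF against 3.16, 4.63, 2.71, 4.10 and 2.81 CPM in controls (edgeR adjusted p = 0.0334). The predicted gene Gm4890, named after its value was seen, rose by 0.79 ± 0.15 (edgeR adjusted p = 0.0376) and lost its call in 8 of them.

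Just outside the threshold, Fhl4 was at 0.95 ± 0.21 and the histone gene Hist1h4n at -2.06 ± 0.46 (edgeR adjusted p = 0.0737 and 0.0803). Hist1h4n was at 0.185 ± 0.111 CPM with BPAF and 0.799 ± 0.236 CPM in controls, so its fold change rests on few reads. Fhl4 had 2.83, 3.11, 3.19, 3.08 and 4.19 CPM with BPAF and 1.83, 1.83, 1.64, 1.33 and 1.88 CPM in controls, a low level at which BPAF replicate 5 stood highest.

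**Figure D4:**
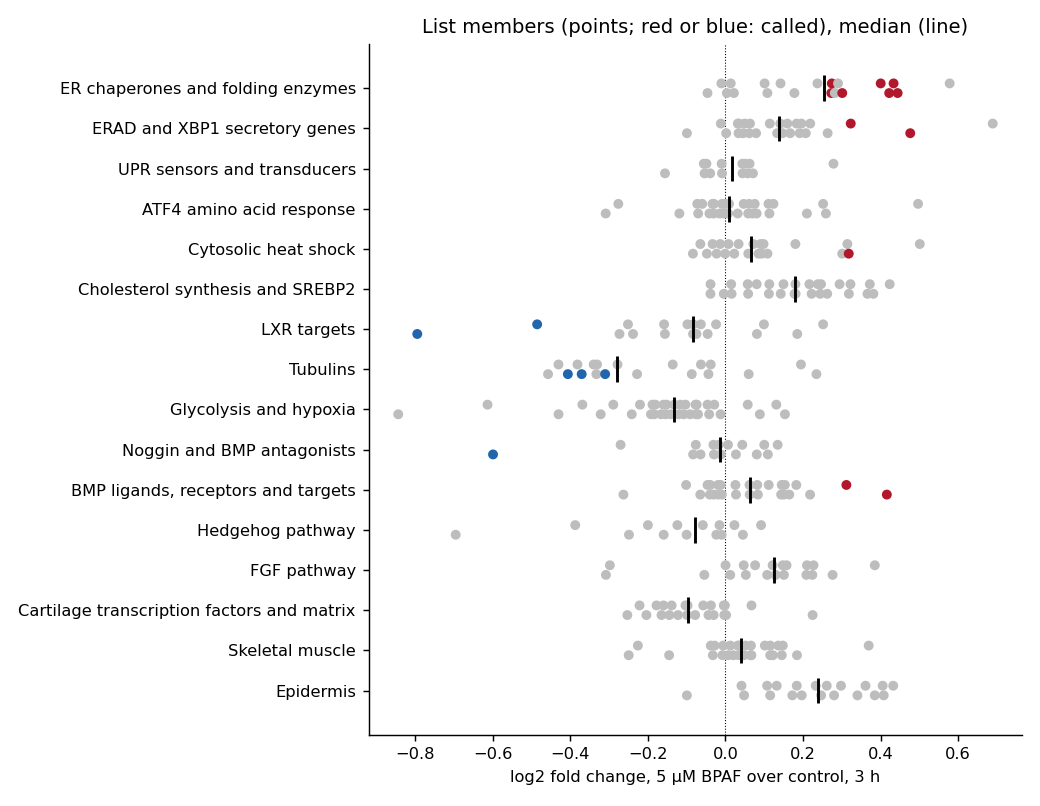
Log2 fold changes of 5 µM BPAF over control at 3 h for the tested members of 16 gene lists (points, red or blue where called) with the median of each list (black line). Called genes sit in the chaperone, XBP1, heat shock, LXR, tubulin, noggin and BMP lists, and the medians run from -0.28 for tubulins to 0.26 for ER chaperones.

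Markers of other cell types were checked beside these results. Of 20 epidermal markers, 19 had a fold change above 0 with a median of 0.24, and their summed level was 799 to 1007 CPM with BPAF and 562 to 913 CPM in controls, with none at 0. By edgeR 0 were called and 6 were higher at an unadjusted p under 0.05, led by the basal keratin Krt5 at 0.43 ± 0.10 (edgeR adjusted p = 0.0803), while DESeq2 and limma-voom called 0. Over all genes 50.3% had a fold change above 0 and 4.56% were higher at that unadjusted p. The part of this epidermal difference in the rise of Msx2 was not tested. Erythroid markers, of which 1 of 15 was at 0, summed to 1821 to 2528 CPM with BPAF and 1985 to 3114 CPM in controls, with a median log2 fold change of -0.23 over 11 tested genes, 0 called and 2 lower at an unadjusted p under 0.05 (edgeR, and 0 by DESeq2 and limma-voom). The part of the red cell difference in the calls was not tested beyond the covariate fit given above, where 27 of the 30 calls were lost while 30 of 30 kept their direction. Of 28 tested skeletal muscle genes edgeR called 0, with 1 higher and 0 lower at an unadjusted p under 0.05, DESeq2 called 0 and limma-voom 0, and the median was 0.04. The sums were 2316 to 2540.1 CPM with BPAF and 2024 to 2580.2 CPM in controls. Endothelial, macrophage and smooth muscle markers had medians of -0.01, -0.02 and -0.04 and 0 edgeR calls, with 0, 0 and 0 higher and 1, 2 and 2 lower at an unadjusted p under 0.05 (DESeq2 called 0, 0 and 1, and limma-voom 0).

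Several responses that a bisphenol might bring were also counted. Among 19 tested estrogen receptors and responsive genes Xbp1 was the 1 call, and Esr1, which encodes the estrogen receptor alpha, had 1.72 ± 0.597 CPM with BPAF and 1.03 ± 0.144 CPM in controls (0.75 ± 0.30, edgeR adjusted p = 0.492). Among p53 targets edgeR called 0 of 26, with 0 higher and 0 lower at an unadjusted p under 0.05, DESeq2 called 0 and limma-voom 0. Among NRF2 oxidative stress genes edgeR called 0 of 20, with 2 higher and 1 lower at an unadjusted p under 0.05, DESeq2 called 0 and limma-voom 0. For immediate early genes edgeR called 0 of 27, with 0 higher and 2 lower at an unadjusted p under 0.05, DESeq2 called 0 and limma-voom 0. For DNA replication genes edgeR called 0 of 30, with 2 higher and 0 lower at an unadjusted p under 0.05, DESeq2 called 0 and limma-voom 0, and for mitotic genes edgeR called 0 of 26, with 0 higher and 3 lower at an unadjusted p under 0.05, DESeq2 called 0 and limma-voom 0.

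At the lower dose of 1 µM, compared with the same 5 controls, edgeR called 0 of 16631 genes at 3 h, with 424 (2.55%) at an unadjusted p under 0.05, DESeq2 called 0 and the authors' deposited table holds 0. Since both doses share their controls, their values are set side by side only. For the 19 genes called higher at 5 µM the median log2 fold change was 0.32 at 5 µM and 0.07 at 1 µM, and for the 11 called lower it was -0.41 and -0.13. None of the 30 had a larger change at 1 µM. The 30 were picked by their values at 5 µM, so smaller values at 1 µM are likely from that choice alone. No effect of dose is read from these medians. Among the 30, the largest 1 µM values were those of Cage1 at 0.49 ± 0.22, Abcg1 at -0.35 ± 0.10 and Msx2 at 0.25 ± 0.09, while Hspa5 was at 0.00 ± 0.07.

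A direct comparison of the doses at 3 h, 5 µM against 1 µM, called 6 of 16681 genes (0.036%), 5 higher (0.03%) and 1 lower (0.00599%), and 989 (5.93%) at an unadjusted p under 0.05. The 5 higher at 5 µM were Hyou1 (0.32 ± 0.04), Dnajc3 (0.40 ± 0.06), Xbp1 (0.40 ± 0.06), Hspa5 (0.40 ± 0.07) and Arrdc3 (0.31 ± 0.05), and Arrdc4 was lower (-0.40 ± 0.06, edgeR adjusted p from 0.0105 to 0.046). Of the 6, Hyou1, Dnajc3, Xbp1 and Hspa5 work in or regulate ER protein folding, so 4 of the 6 come from the ER lists. Those lists together hold 46 genes tested against control, where 16681 genes were tested between the doses. All 6 had also been called against control, and the same 5 µM libraries were used there. The return of ER genes is therefore no separate support for the calls against control. In the 1 µM libraries Hspa5 stood at 553, 646, 636, 586 and 724 CPM and Xbp1 at 82.6, 92.8, 91.0, 91.8 and 96.6 CPM. For both genes the 1 µM values overlap those of the controls and lie below every 5 µM library. For Abcg1, with 15.6, 15.3, 13.2, 14.5 and 11.6 CPM at 1 µM, the highest 5 µM library reached past the lowest 1 µM library, and the doses were not called apart (-0.44 ± 0.12, edgeR adjusted p = 0.481). The comparison rests on few libraries, since 1 call was left without 1 µM replicate 4 and 3 without BPAF 5 µM replicate 5. The 1 µM replicate 1 library had 0.473 CPM of the Y-linked reads, and without it 4 calls were left. Its part in the comparison was not tested further. DESeq2 called 40 genes between the doses.

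Separate libraries at 24 and 48 h, with their own controls, show which of the early changes were seen again. Of the 19 genes higher at 3 h, 6 were called higher at 24 h and 13 at 48 h, where edgeR called 78 of 16433 genes (0.475%) and 448 of 16345 (2.74%) higher. In both directions it called 258 genes (1.57%) at 24 h and 1171 (7.16%) at 48 h. Of the 19, Ngfr was called lower at 48 h. Of the 11 genes lower at 3 h, 4 were called lower at 24 h (1.1% of all genes were) and 5 at 48 h (4.42%), and Tubb4b and Tubb5 were called higher at 48 h. The tests of a difference between times, over 20 libraries each, called 59 genes (0.336%) between 24 and 3 h and 491 (2.8%) between 48 and 3 h. Xist, the transcript of the inactive X chromosome of females, was at 0.954 and 0.880 CPM in control replicates 2 and 3 at 24 h and at 2.41 CPM in control replicate 3 at 48 h, against 354 to 1726 CPM in the other libraries. Without these libraries, each in turn, edgeR called 132 and 131 genes at 24 h and 1032 at 48 h, and 35 and 39 differences between 24 and 3 h and 476 between 48 and 3 h. Their part in the later results was not tested further.

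The ER folding genes were higher again at the later times. Of the 20 chaperone genes 6 were called higher at 24 h and 13 at 48 h with 0 lower at either time, and the list's median went from 0.26 at 3 h to 0.25 and 0.30. Hspa5 was at 0.36 ± 0.05 at 24 h and 0.43 ± 0.06 at 48 h and Canx at 0.28 ± 0.06 at 24 h and 0.41 ± 0.06 at 48 h. Pdia4 was at 0.28 ± 0.06 at 24 h and 0.44 ± 0.06 at 48 h and Magt1 at 0.35 ± 0.09 at 24 h and 0.48 ± 0.06 at 48 h. No difference from 3 h was called for any of the 9 called members of the chaperone and XBP1 lists, and 1 was called over the 46 genes of both lists. Xbp1 was at 0.27 ± 0.07 at 24 h and 0.21 ± 0.06 at 48 h. At 24 h Xbp1, Magt1, Manf, Serp1, Dnajb9 and Hyou1 were not called (edgeR adjusted p from 0.0585 to 0.321), while at 48 h all of them were called higher. The ATF4 list, without an edgeR call at 3 h (DESeq2 called Ddit4 lower), had 5 members called higher by edgeR at 24 h and 17 at 48 h, and Trib3, at -0.07 at 3 h, reached 1.43 ± 0.16 at 48 h, a difference of 1.51 ± 0.23 (edgeR adjusted p = 1.03e-04). The p53 targets likewise had 0 calls at 3 h and 19 of 26 higher at 48 h.

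**Figure D5:**
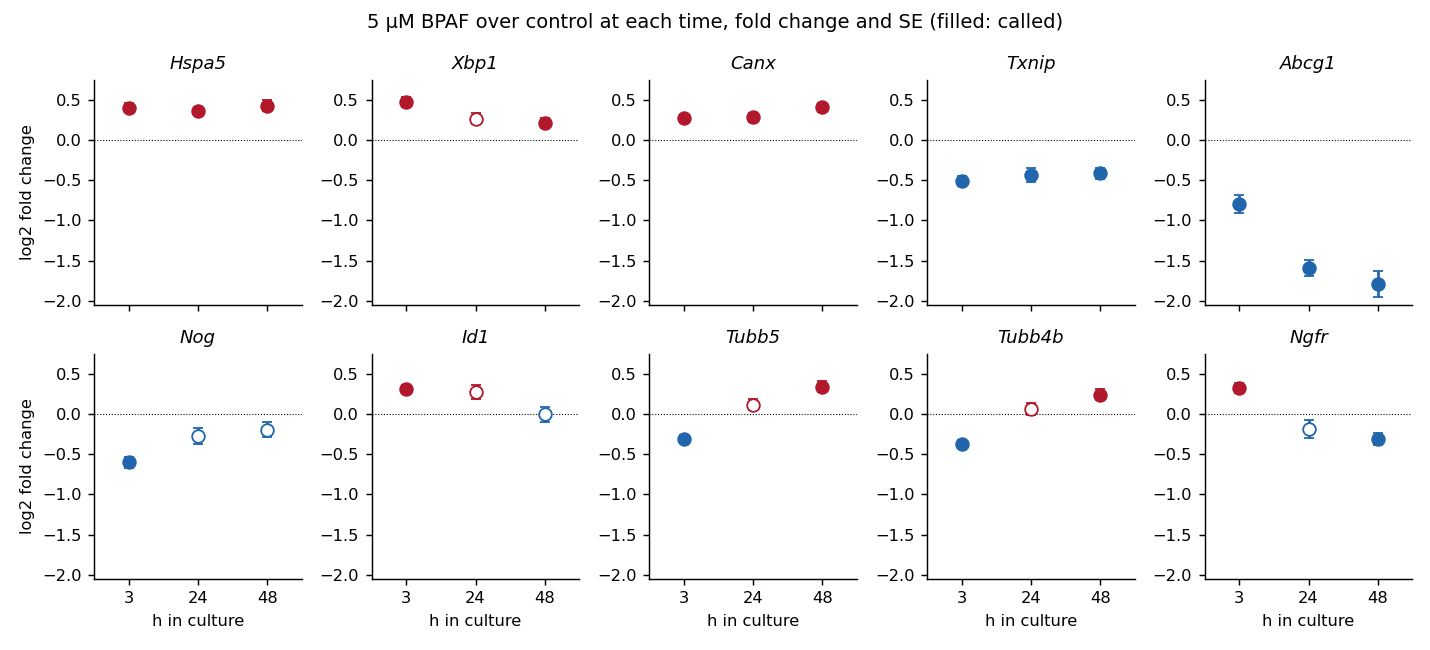
Log2 fold change of 5 µM BPAF over the controls of the same time, with its standard error, for 10 genes called at 3 h (n = 5 libraries per group and time, filled where called). Hspa5, Canx and Txnip keep their sign and call at all 3 times, Abcg1 falls further, and Tubb5, Tubb4b and Ngfr change sign.

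The fold change of Abcg1 was more negative later, at -1.59 ± 0.10 at 24 h and -1.79 ± 0.17 at 48 h. The difference from 3 h was called at both times (-0.78 ± 0.15 and -0.99 ± 0.21, edgeR adjusted p = 0.0136 and 0.00577). Abcg1 levels were 10.3, 8.32 and 8.37 CPM with BPAF at 3, 24 and 48 h, against 17.9, 25.1 and 28.7 CPM in controls. Abca1 was at -0.65 ± 0.12 at 24 h and -0.67 ± 0.10 at 48 h, with no called difference from 3 h. Of the 18 LXR targets 4 were called lower at 24 h and 7 at 48 h, among them Srebf1 at -0.55 ± 0.07 at 24 h and -0.62 ± 0.05 at 48 h. Txnip was at -0.43 ± 0.09 at 24 h and -0.42 ± 0.07 at 48 h and Arrdc4 at -0.48 ± 0.11 at 24 h and -0.30 ± 0.07 at 48 h, called at both times. The lowering of Nog was not called later, at -0.27 ± 0.10 at 24 h and -0.20 ± 0.09 at 48 h, and the difference from 3 h was not called either (edgeR adjusted p = 0.414 and 0.0548).

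Both called beta tubulins had the opposite sign later. Tubb5 was at 0.12 ± 0.07 at 24 h and 0.34 ± 0.06 at 48 h and Tubb4b at 0.06 ± 0.08 at 24 h and 0.24 ± 0.07 at 48 h, and both differed from 3 h at 24 h (edgeR adjusted p = 0.0334 and 0.0418) and at 48 h (edgeR adjusted p = 3.05e-05 and 6.90e-05). Tubb5 levels were 1815, 1629 and 1761 CPM with BPAF at 3, 24 and 48 h, against 2260, 1504 and 1385 CPM in controls. Tubb4b levels were 174, 138 and 199 CPM with BPAF, against 226, 132 and 168 CPM in controls. The median fold change of the 11 alpha and beta tubulins was -0.34 at 3 h, -0.03 at 24 h and 0.17 at 48 h. The difference between 48 and 3 h was called for 7 of them. Among the isotypes Tubb3 was called higher at 48 h (1.13 ± 0.20) and Tuba4a was called lower at 24 and 48 h (-0.76 ± 0.16 and -0.93 ± 0.15). Ngfr went from 0.32 at 3 h to -0.31 ± 0.08 at 48 h, a called difference (edgeR adjusted p = 5.69e-04).

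Muscle genes were called at the later times. At 3 h none of the 28 tested muscle markers was called, while 14 of 27 were called lower than controls at 24 h and 25 of 28 at 48 h. Over all genes 1.1% were called lower at 24 h and 4.42% at 48 h. The embryonic myosin Myh3 was at 0.12 ± 0.07 at 3 h, -0.78 ± 0.07 at 24 h and -1.43 ± 0.12 at 48 h, and the M-band gene Myom1 at 0.21 ± 0.07 at 3 h, -0.90 ± 0.11 at 24 h and -1.62 ± 0.11 at 48 h. The differences from 3 h were called for Myh3 and Myom1 at both times (edgeR adjusted p from 5.07e-09 to 9.98e-05). Myh3 levels were 379, 551 and 541 CPM with BPAF at 3, 24 and 48 h, against 352, 944 and 1448 CPM in controls. Myom1 levels were 28.4, 29.6 and 27.1 CPM with BPAF, against 24.6, 55.4 and 83.2 CPM in controls. The fold change of Pax7, the factor of muscle progenitors, went from 0.03 at 3 h to -1.99 ± 0.13 at 48 h. That of Myog, a factor of muscle differentiation, went from 0.07 to -0.40 ± 0.10. Pax7 stood at 16.7 CPM at 3 h and 3.77 CPM at 48 h with BPAF, against 16.3 and 14.9 CPM in controls.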

How the data were processed

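Poly-A RNA from whole forelimb buds was sequenced, and the 5 µM BPAF and control libraries at 3 h (5 each) were grouped by their labels. The build was mm10, and CASAVA 1.8, STAR 2.5, HTSeq 0.6.1 and DESeq2 are named per the submitters' processing notes, while filters and strand settings are not given in the sources used here. Each table the authors deposited holds, per the file headers, unnormalized read counts, a normalized signal (counts divided by 1 size factor per library), FPKM values, and their log2 fold changes with p-values. Only the counts were tested here, and of the other columns the authors' adjusted p-values were counted. Listed genes had 2 or more reads over the 10 libraries of a table, and symbols were matched by identifier because 24 had been turned into dates. Of 9 deposited tables, 4 were used, with 34404 genes joined.

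Each comparison was fitted in edgeR 4.0.16 (R 4.3.3) with TMM, filterByExpr (minimum count 10, minimum total 15), the quasi-likelihood F-test without covariates and Benjamini-Hochberg adjustment over all genes tested, with calls made where the adjusted p was under 0.05. Effects are given as log2 fold changes ± standard error. Library totals were 15830793 to 19100366 reads, and the fit was tested on simulated data. No pair of libraries in a 3 h group agreed within sampling noise (chi-square per degree of freedom 5.12 to 11.0).

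The comparison, the 38 gene lists (31 pathways, 7 cell types) and the rule for named genes were chosen with earlier results of these data known. The rule names all called genes with an established symbol, 18 anchors, from each list at most 4 members, by smallest p, the 6 strongest calls between doses and of each difference between times, and 3 genes just short of the call, of which 1 is not reported here. Alternatives were DESeq2 1.42.0, limma-voom 3.58.1, no filter, a mean CPM of at least 1, other scalings, a replicate block, covariates, all 15 libraries of 3 h, and leaving out each library. Total-count scaling and list counts without control replicate 3 were added after seeing the data. A few chaperone members without a call (Txndc5, Ppib, Dnajc10, Sil1), Sdf2l1, Sec61a1, Tubb3, Tuba4a and Gm4890 were named after their values were seen. Promoter windows came from RefSeq, GRCm38.p6. Tables were scaled separately. Near-identical, overlapping or antisense genes may share reads.

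Although the treatment text writes bisphenol A, sample titles say BPAF, and 1 µM replicate 5 at 3 h carries another compound and dose in 1 field. It was kept by its title.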

Additional observations from a re-analysis of the deposited data

Results flagged for a closer look

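One library stood apart from the other 4 of its group for 7 of the 82 groups of 5 examined (8.54%), where chance alone gives about 1 in 20. In the 5 µM BPAF libraries at 3 h, replicate 5 was highest for Dnajc3 (87.4 CPM), Dnajb9 (45.1 CPM) and Fhl4 (4.19 CPM), and replicate 2 was lowest for Nog (25.7 CPM) and highest for Magt1 (180.0 CPM). In the controls, replicate 5 was highest for Txnip (210.3 CPM) and replicate 2 for Canx (413 CPM).

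The effect of 5 µM BPAF differed between times, by edgeR's test of the difference over 20 libraries, for 26 gene and time combinations, given here as the later effect minus the effect at 3 h on the log2 scale. Abcg1 had -0.78 at 24 h and -0.99 at 48 h. The tubulins Tubb4b (0.44 and 0.62) and Tubb5 (0.44 and 0.66) differed at both times and Tuba1a at 48 h (0.59). The genes Myom1 (-1.10 and -1.83), Myh3 (-0.88 and -1.53), Ablim3 (-0.73 and -1.39), Myom2 (-1.24 and -1.94) and Gatm (-0.65 and -0.92), Tceal7 (-1.32 and -2.31), Acta2 (-0.86 and -0.98) had more negative effects at 24 and 48 h. At 48 h alone the difference was -0.63 for Ngfr, -1.26 for Frem2, -2.02 for Pax7, -2.60 for Myh7b and 1.51 for Trib3.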

How the results depend on the processing

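The 30 calls at 3 h became 116 with DESeq2 (51 higher, 65 lower), 74 without the low-count filter (38 and 36), 62 in the replicate block fit (30 and 32) and 3 with the haemoglobin covariate (0 and 3), and the higher share of calls, 19 of 30, was not held there. The DESeq2, unfiltered and blocked fits each held all 30 genes. Total-count scaling, added after seeing the data, gave 30 calls (22 and 8). Without 1 library the counts ranged from 15 to 45 for 5 µM at 3 h, 0 to 1 for 1 µM, 1 to 9 for 5 against 1 µM, 109 to 500 for 24 h, 912 to 1153 for 48 h, 29 to 114 for the 24 h difference and 404 to 499 for the 48 h difference. The 6 calls between doses became 40 with DESeq2, 25 without the filter and 50 with the block. At 24 h the 258 calls became 513 with DESeq2 and 655 with the block, and the 59 differences from 3 h became 145 and 149. Same-numbered libraries correlated at -0.00234 to 0.124 in the main comparison. Some pair fell below 0.1 in each comparison, and by that rule alone the numbers were not taken to pair the samples. Even so, 4 of 5 correlated best with their own number in the main comparison. It was 3 of 5 for 1 µM against control, 5 of 5 between the doses, and 4 of 5 at 24 h and at 48 h. The labels do not say what same-numbered libraries share, and a shared origin was not tested beyond the block fit. Of the 30 called genes, 3 passed in all 20 settings, 10 missed only with the haemoglobin covariate, 9 missed in 2 to 9 settings and 8 in 10 or more. The cause of these changes was not tested. Uncalled genes near 0 changed sign: Runx2 was 5.31e-04 without the filter, 0.0022 with the block, 2.14e-04 at a mean CPM of at least 1, 0.12 with the Y-linked covariate, 0.00899 with total-count scaling, and from -0.0505 to 0.0898 over the fits without 1 library. Pax7 was -0.0173 with the haemoglobin covariate and from -0.0114 to 0.0838, and Trib3 from -0.177 to 0.0253, over the fits without 1 library. The number of 5 libraries per group and 15830793 to 19100366 reads limit what can be called.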

Other observations

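Within the FGF list, the 11 feedback genes of the Spry, Spred, Dusp and Etv families and Il17rd, a subset chosen after the values were seen, all had fold changes above 0 at 3 h, where 50.3% of all genes did, with a median of 0.16 and 8 higher at an unadjusted p under 0.05, where 4.56% of all genes were. Since the subset was picked by these values, nothing is read from its counts. At 24 and 48 h their medians were -0.27 and -0.15. Spry1, an inhibitor of receptor tyrosine kinase signalling, was at 0.23 ± 0.07 at 3 h, -0.38 ± 0.07 at 24 h and -0.37 ± 0.09 at 48 h, and edgeR called it lower at both later times. The difference from 3 h was called for 2 of the 11 at 24 h and 2 at 48 h.

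Ribosomal protein genes had small values of 1 sign. All 39 tested were below 0 with a median of -0.09, where 50.3% of all genes were above 0. edgeR called 0, with 13 lower at an unadjusted p under 0.05 (3.99% of all genes were), while DESeq2 called 1 and limma-voom 0. Most of the 39 stayed below 0 in every fit without 1 library, but whether all 39 did depended on the library left out. Above 0 were 7 without control replicate 4, 2 without BPAF replicate 2 or 3, 1 without control replicate 1 or 5, and 1 with total-count scaling. Over the fits without 1 library, 5 to 18 were lower at that unadjusted p. Nuclear genes of oxidative phosphorylation had 28 of 30 below 0 with a median of -0.07, 0 called by edgeR, DESeq2 and limma-voom, and 3 lower at an unadjusted p under 0.05. Of the 7 tested targets and partners of the aryl hydrocarbon receptor, 7 were below 0, with 0 called by edgeR, DESeq2 and limma-voom and 2 at an unadjusted p under 0.05. Cyp1a1, its classical target, was at 11.8 ± 6.09 CPM with BPAF and 20.9 ± 12.1 CPM in controls (-0.82 ± 0.34, edgeR adjusted p = 0.507).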
